A study of Mus musculus with 2 samples.

Results

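The replication-dependent histone genes were followed through mouse bone marrow in 2 single-cell RNA libraries. The set was every gene whose symbol begins with Hist1h, Hist2h, Hist3h or Hist4h, which gave 67 of the 32285 genes counted. It held 54 Hist1, 10 Hist2, 2 Hist3 and 1 Hist4 genes, and by protein 6 linker histone H1, 18 H2A, 18 H2B, 12 H3 and 13 H4 genes. On the mm10 assembly, 54 of them lie on chromosome 13, 10 on chromosome 3, 2 on chromosome 11 and 1 on chromosome 6.

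Femoral marrow was flushed from 2 mice, both 2 months old, and run on 10x Genomics 3' v3 chips. The control library, labelled WT, came from a littermate with floxed Ddx41 (Ddx41 fl/fl), no VavCre and intact cGas. The other library, DKO, was VavCre:Ddx41 fl/fl, cGAS-/-. VavCre drives the deletion in blood-forming cells, and the study's text also gives oocytes and endothelium as sites where it is expressed. Ddx41 is an RNA helicase of the DEAD-box family, and cGas is the sensor of DNA in the cytoplasm. Each genotype was 1 library from 1 mouse. No difference between the genotypes could therefore be tested, no p-value is given, and the 95% intervals cover the error of counting molecules only. Genotype, mouse and library cannot be told apart.

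Core histones H2A, H2B, H3 and H4 wrap DNA into nucleosomes, and histone H1 binds the linker DNA between them. A cell that copies its DNA must also make new histones, and the replication-dependent genes supply them during S phase. Their messages are intronless and usually end in a short stem-loop rather than a poly(A) tail. The stem-loop is bound by Slbp, which acts in the processing, translation and decay of the message. Some of these genes, Hist1h1c and Hist1h2bc among them, are also known to give polyadenylated messages in cells that no longer divide. The libraries were primed with oligo-dT, so the counts are not the whole level of these messages.

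Of the 67 genes, 62 had no intron in the GENCODE M21 annotation of GRCm38, and 44 held the stem-loop, searched as an inverted repeat of 6 bases around a loop of 4. Only the annotated message was searched, and some genes without a hit had short ones, such as Hist1h4k with 312 bases and Hist1h2ai with 393. A stem-loop beyond the annotated end would be missed, so the other genes cannot be said to lack it. The form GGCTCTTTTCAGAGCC was found in 26 genes, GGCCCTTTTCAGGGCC in 7, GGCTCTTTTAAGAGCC in 6, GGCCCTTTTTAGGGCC in 2, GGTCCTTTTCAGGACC in 2 and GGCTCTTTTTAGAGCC in 1. The stem-loops of 5 genes that the results turn on are shown with their flanks, 5' to 3' in the sense of the message, with the stem-loop in capitals.
Hist1h2ap: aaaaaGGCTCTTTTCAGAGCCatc
Hist1h2ae: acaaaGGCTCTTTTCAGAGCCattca
Hist1h4d: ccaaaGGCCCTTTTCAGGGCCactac
Hist1h1c: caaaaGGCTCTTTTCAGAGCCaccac
Hist1h3b: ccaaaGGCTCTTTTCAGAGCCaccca
Hist1h2ap, Hist1h2ae, Hist1h1c and Hist1h3b carried the same stem-loop letters. The annotated message of Hist1h2ap went on for 3 bases after the stem-loop and that of Hist1h3b for 51, while the longest messages of Hist1h4d and Hist1h1c went on for 770 and 840 bases.

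Hist1h2ap, an H2A gene at chr13:21833026-21833507 on the minus strand, also carries a run of 12 A in its 3' untranslated region (chr13:21833045-21833056), 26 bases after the stop codon and directly before the stem-loop. The run is shown in capitals for Hist1h2ap and for Hist1h2ae, another H2A gene, which has 8 A starting 20 bases after the stop codon.
Hist1h2ap: cccgaaaagAAAAAAAAAAAAggctctttt
Hist1h2ae: taatctcgtAAAAAAAAcaaaggctc
A run of 8 or more A was present in 7 of the 67 genes, which together gave 42.2% of the histone UMIs of control and 23.6% of those of DKO cells. Hist1h2ap alone gave 27.3% and 8.05%, and over all cells 4 of the 7 genes were lower in the DKO library. Oligo-dT can bind such runs, but whether it did so here was not tested.

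Promoters of 62 of the 67 genes were matched in RefSeq (GRCm38.p6, from 250 bases before to 50 after the start). The CCAAT box was present on either strand in 53 of the 62 (85.5%), against 37.4% of 32851 promoters of the same length. TATAAA was present in 35 (56.5% against 13.6%), and the octamer ATTTGCAT, known from H2B promoters, in 13 (20.97% against 1.74%). The families differed in these letters. All 6 H1, 18 H2A, 16 H2B and 10 H3 promoters matched had CCAAT, but only 3 of 12 H4 promoters did, and the octamer was found in 7 H2A and 6 H2B promoters and in none of the H1, H3 or H4 promoters. The 130 bases that precede the start are shown for 3 genes that behaved differently in the libraries, with these motifs in capitals on whichever strand they lie. The windows searched were chr13:21833426-21833725 for Hist1h2ap, chr13:23571171-23571470 for Hist1h2ae and chr13:21780576-21780875 for Hist1h1b, all on the minus strand.
Hist1h2ap: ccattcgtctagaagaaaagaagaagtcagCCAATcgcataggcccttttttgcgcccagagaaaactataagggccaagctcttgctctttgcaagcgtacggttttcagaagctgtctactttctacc
Hist1h2ae: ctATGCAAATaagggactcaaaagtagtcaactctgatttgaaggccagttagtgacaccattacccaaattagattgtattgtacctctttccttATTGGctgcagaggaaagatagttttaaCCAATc
Hist1h1b: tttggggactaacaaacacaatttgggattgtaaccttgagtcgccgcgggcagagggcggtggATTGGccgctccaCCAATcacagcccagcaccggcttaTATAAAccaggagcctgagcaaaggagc
Hist1h2ap has a single CCAAT in this stretch and no TATAAA in its window, whereas Hist1h1b has CCAAT on both strands and a TATAAA.

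The kept cells numbered 18590 in the control library (118154534 UMIs, median 4870 per cell) and 13723 in the DKO library (114719859 UMIs, median 6903), and 75 cell barcodes were found in both. Hemoglobin genes made up 28.6% of all control UMIs and 36.4% of all DKO UMIs. Ddx41 stood at 20.3 CPM in control and 8.01 CPM in DKO cells, where CPM is a gene's UMIs per 1000000 UMIs of all genes in the same cells, and Cgas at 13.6 and 7.23 CPM, so neither message was absent from the DKO library. Cells were sorted into 13 classes by clustering and by markers, and between 8 and 14 markers were used for each class. All of them were at least 1.5-fold higher in their own class except 1 late erythroid and 1 dendritic marker. A class is named for the cells whose markers it carries and is to be read as erythroid-like, neutrophil-like and so on. A cluster of 645 control and 649 DKO cells, with early erythroid markers, and a cluster of 369 and 195 cells, with macrophage markers, had more markers of another class than of that one among their leading genes, so they stayed unnamed and count only among all cells.

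Over all cells, the histone genes together were lower in the DKO library. They gave 383058 UMIs in the control library, 3242 CPM or 0.324% of all UMIs, and 279501 UMIs in the DKO library, 2436 CPM or 0.244%. On the log2 scale DKO over control stood at -0.41 (95% interval -0.42 to -0.41). With the hemoglobin genes left out of the total, it was -0.25.

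A single gene, which has a near-identical copy, held most of this difference. Hist1h2ap gave 104662 UMIs in control cells and 22511 in DKO cells, or 886 and 196 CPM, a log2 ratio of -2.17 (-2.20 to -2.15) and 4.51-fold lower in the DKO library. It was 27.3% of the histone UMIs of the control library and 8.05% of those of the DKO library. All 67 genes together were lower by 806 CPM in the DKO library, and Hist1h2ap alone by 690 CPM, or 85.6% of that. Without Hist1h2ap, a choice made after its value was seen, the other 66 genes summed to 2356 CPM in control and 2240 CPM in DKO cells, a log2 ratio of -0.073 (-0.08 to -0.07), and stood at 0.094 with hemoglobin left out of the total. These values pool cell classes that the libraries held in different numbers. Within classes the other 66 genes stood at -0.76 in late erythroid-like, -0.24 in early erythroid-like and -0.27 in neutrophil-like cells. They stood at -0.16 in B cell-like and 0.033 in cKit+ progenitor-like cells.

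**Figure D1:**
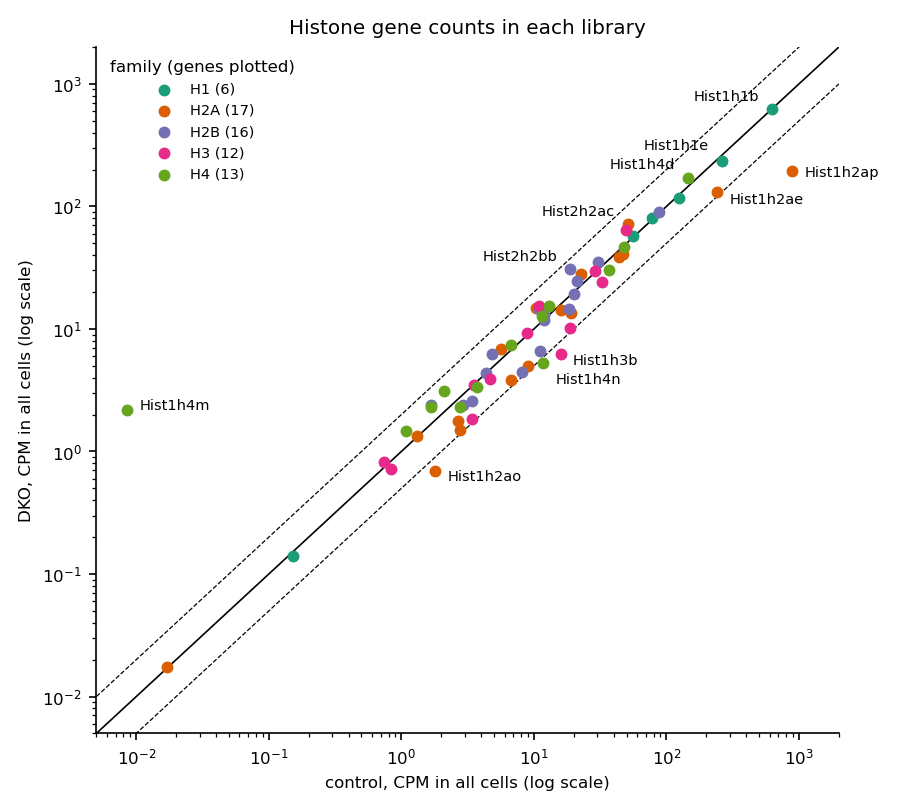
Each point is 1 of the 64 histone genes with UMIs in both libraries, at its CPM in all control cells (x axis, log scale) and all DKO cells (y axis, log scale), coloured by protein family; the solid line marks equality and the dashed lines a 2-fold difference. Hist1h2ap, at 886 and 196 CPM, is the only gene above 20 CPM that lies beyond the lower dashed line, and Hist1h1b, at 624 and 618 CPM, lies on the line of equality.

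Of the 67 genes, 22 reached 20 CPM in either library over all cells and 45 did not. Among the 22, only Hist1h2ap was at least 2-fold lower in the DKO library, against 0.909% of all 5611 genes at that level, and 0 were at least 2-fold higher, against 0.196%. The 22 were split evenly, 11 below and 11 above 0, with a median log2 ratio of 0.01 beside -0.06 for all genes. Hist1h1b, a linker histone gene, gave the most UMIs over both libraries and was nearly level over all cells, with 73740 UMIs or 624 CPM in the control and 70932 UMIs or 618 CPM in the DKO library (-0.01, interval -0.03 to 0.00). By class it was not level. Its interval lay below 0 in 10 of 13 classes and above 0 in 3, with a median log2 ratio of -0.36.

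Over all cells, the other linker histone genes lay near Hist1h1b. By class, the interval of Hist1h1e lay below 0 in 10 of 13 classes and above 0 in 1. Hist1h1e was at 261 and 236 CPM (-0.15), Hist1h1c at 125 and 117 CPM (-0.09), Hist1h1d at 77.6 and 81.1 CPM (0.06) and Hist1h1a at 55.8 and 57.0 CPM (0.03). The H1 family as a whole summed to 1144 CPM in control and 1110 CPM in DKO cells (-0.04).

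Among the H2A genes, Hist1h2ae was also lower in the DKO library, with 28612 UMIs or 242 CPM in the control and 15122 UMIs or 132 CPM in the DKO library (-0.88, -0.91 to -0.85). Hist1h2ab was at 46.9 and 40.5 CPM (-0.21). Hist2h2ac went the other way, from 50.9 CPM in the control to 71.5 CPM in the DKO library (0.49, 0.44 to 0.54), as did Hist1h2af, from 22.7 to 28.1 CPM (0.31). The H2A family summed to 1368 and 570 CPM, a log2 ratio of -1.26, or -0.36 without Hist1h2ap. H2A was thus the family in which the DKO library stood apart by the most, with and without that gene.

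The H2B, H3 and H4 families differed by little in sum. H2B genes summed to 268 CPM in control and 283 CPM in DKO cells (0.08), H3 genes to 179 and 170 CPM (-0.08) and H4 genes to 284 and 304 CPM (0.10). Within them, Hist2h2bb on chromosome 3 was at 18.8 and 30.6 CPM (0.70, 0.62 to 0.78), the highest ratio among the 22 genes, and Hist1h3c at 49.8 and 63.9 CPM (0.36). Hist1h3e was at 32.8 and 24.2 CPM (-0.44), Hist1h4h at 37.0 and 30.4 CPM (-0.28), and Hist1h4d, the H4 gene with the most UMIs, at 145 and 171 CPM (0.24). Members of 1 family therefore lay on both sides of equality.

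Among the 45 genes under 20 CPM, 2 had no UMI in the control library, 2 had none in the DKO library and 1 of them, Hist1h2ba, had none in either. In all, 62 of the 67 genes had 100 or more UMIs over both libraries, of which 33 lay below 0. Hist1h3b, an H3 gene, had 1877 UMIs in control and 714 in DKO cells (-1.35), and Hist1h4n, an H4 gene, had 1376 and 604 UMIs (-1.14). Both fell outside the rule for naming genes over all cells and were picked with their values in view.

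Near-identical copies limit what can be read from single genes. Over the last 300 bases of the message, all 50-base words of Hist1h2ap were also present in another gene, mainly its copy Hist1h2ao, and reads that fit 2 genes equally well are as a rule not counted. The matrices of both libraries list the same genes, and the header of the DKO matrix names Cell Ranger 7.1.0. The version in the control header was not checked. The reference settings and the sequence of these genes in each mouse are not given in the sources used here. The part of version, settings and sequence in the ratios of Hist1h2ap, Hist1h4m and Hist1h4n was not tested. Hist1h2ap and Hist1h2ao summed to 888 CPM in control and 197 CPM in DKO cells (-2.17). Hist1h2ao gave only 213 and 80 of these UMIs, so the sum had to follow Hist1h2ap. It cannot recover reads that were left uncounted because they fit both genes. Hist1h4m and Hist1h4n, a pair of H4 genes in the same stretch of chromosome 13, went in opposite directions: Hist1h4m had 1 UMI in control and 248 in DKO cells, a ratio of 255 (45.4 to 10129), while Hist1h4n was lower. Their sum was at 11.7 and 7.43 CPM (-0.65, -0.77 to -0.53). Hist1h1e overlaps Hist1h2be on the same strand, and all of its 3' words were also present in that gene. Hist2h2bb overlaps the gene Gm42743 on the same strand and shared 38.6% of its 3' words. The part of these overlaps in the counts of Hist1h1e and Hist2h2bb was not tested. Genes that shared at least 75% of their 3' words with another gene had a median log2 ratio of -0.44, with 14 of 19 below 0, those that shared under 25% had a median of 0.03, with 9 of 23 below 0, and the part of shared sequence in these ratios was not tested.

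Along chromosome 13 the ratios were mixed in the larger stretches of the cluster. From 21715763 to 21837530, the stretch with Hist1h2ap and Hist1h1b, 9 of 17 genes with at least 100 UMIs lay below 0. From 23531050 to 23764406, which holds Hist1h2ae and Hist1h4d, 15 of 28 did. The 5 genes between 22035164 and 22043676 all lay below 0, with a median of -0.28.

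**Figure D2:**
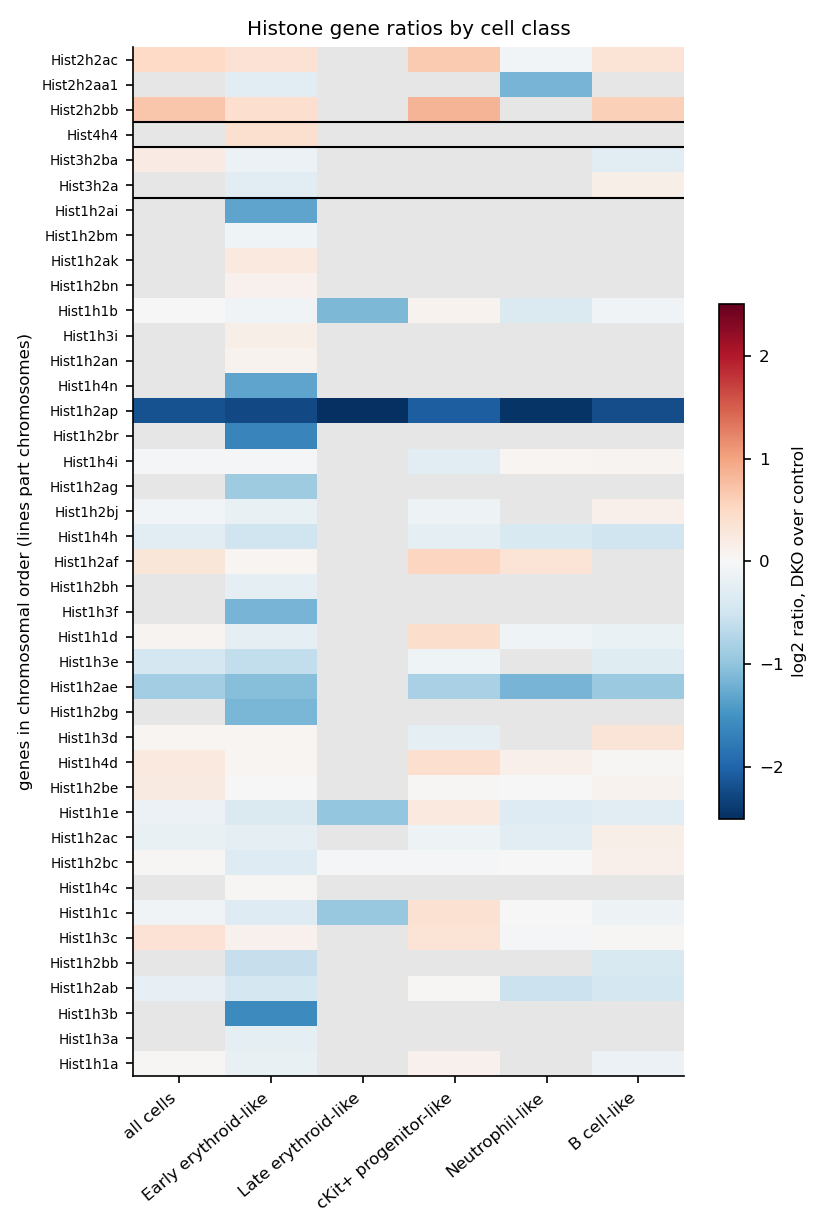
Log2 ratios of DKO over control (colour, blue for lower in the DKO library and red for higher) for the 41 histone genes that reached 20 CPM in either library in at least 1 of the 6 columns, in chromosomal order; grey cells are under 20 CPM in both libraries, and colours stop at the ends of the scale. Hist1h2ap is blue in every column and Hist1h2ae in the 5 columns where it is drawn, while Hist2h2bb is red in all 4 columns where it is drawn.

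Early erythroid-like cells carried the highest histone level of any class in both libraries, 12218 CPM in 1664 control cells and 8237 CPM in 1574 DKO cells (-0.57, -0.58 to -0.56; -0.24 without Hist1h2ap). In these dividing red cell precursors, 41 of the 67 genes reached 20 CPM, 8 were at least 2-fold lower in the DKO library against 0.872% of 4929 genes, and 0 were 2-fold higher. Of the 41, 29 lay below 0 and 12 above, with a median of -0.22 beside 0.01 for all genes. Hist1h2ap was at 3285 and 684 CPM (-2.26), Hist1h2br at 30.6 and 9.78 CPM (-1.64), Hist1h3b at 69.8 and 23.1 CPM (-1.59), Hist1h4n at 45.3 and 18.0 CPM (-1.33), and Hist1h2ai at 39.0 and 15.7 CPM (-1.31). The lower genes thus included H2A, H2B, H3 and H4 members.

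At the other end in the same cells stood Hist2h2bb at 93.1 and 125 CPM (0.43), Hist4h4 at 34.6 and 45.6 CPM (0.40) and Hist2h2ac at 218 and 282 CPM (0.37). Hist1h2ak (0.25) and Hist1h3i (0.15) followed. Hist1h1b was at 2395 and 2257 CPM (-0.09). By family, H2A summed to 5206 and 1995 CPM (-1.38, or -0.55 without Hist1h2ap), H1 to 4282 and 3780 CPM (-0.18), and H4 to 1051 and 1020 CPM (-0.04). The called share of cycling cells was 95.9% in control and 97.6% in DKO cells. With nearly every cell called in both libraries, this share could show little difference in division.

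Late erythroid-like cells, which hold mostly hemoglobin message, had little histone message, 264 CPM in 5309 control cells and 145 CPM in 4171 DKO cells (-0.87, -0.92 to -0.82; -0.76 without Hist1h2ap). Here 5 histone genes reached 20 CPM, and 2 were at least 2-fold lower in the DKO library. The background was high as well, since 19.2% of 683 genes were 2-fold lower and their median was -0.40. Hist1h2ap was at 22.3 and 1.82 CPM (-3.59), Hist1h1b at 36.6 and 16.8 CPM (-1.12), Hist1h1e at 39.1 and 20.1 CPM (-0.96) and Hist1h1c at 39.6 and 20.5 CPM (-0.95). Hist1h2bc was nearly level, at 33.4 and 32.8 CPM (-0.03). Hemoglobin took 85.9% of the UMIs in the control cells and 88.9% in the DKO cells, and with hemoglobin left out the sum stood at -0.52.

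In cKit+ progenitor-like cells the sum was 3179 CPM in 603 control and 2445 CPM in 245 DKO cells (-0.38), and Hist1h2ap held the difference, since the other genes stood at 0.033 (0.00 to 0.06). Of 21 genes at 20 CPM, 1 was at least 2-fold lower against 0.323% of 6498 genes, with 9 below and 12 above 0. Hist1h2ap was at 1029 and 246 CPM (-2.07) and Hist1h2ae at 218 and 124 CPM (-0.81). Above 0 stood Hist2h2bb at 11.8 and 21.4 CPM (0.86), Hist2h2ac at 44.8 and 70.5 CPM (0.65), Hist1h2af (0.53), Hist1h1d (0.44) and Hist1h4d (0.42). The H1 family was at +0.15 in these cells.

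In B cell-like cells, 3636 CPM in 2499 control cells stood beside 2646 CPM in 1655 DKO cells (-0.46, or -0.16 without Hist1h2ap). Of 23 genes, 1 was 2-fold lower against 0.411% of 6562 genes. Hist1h2ap was at 903 and 194 CPM (-2.22) and Hist1h2ae at 272 and 143 CPM (-0.93), followed by Hist1h4h (-0.49), Hist1h2ab (-0.44) and Hist1h2bb (-0.37). Hist2h2bb (0.59), Hist2h2ac (0.33) and Hist1h3d (0.32) were again on the other side. B cell-like cells with a UMI of the surrogate light chain genes, an early stage that divides, had 7050 CPM in control and 4496 CPM in DKO cells (-0.65), and those without had 2104 and 1721 CPM (-0.29). The upper limits for free RNA were 9.50% and 15.3% in the cells with these genes and 65.5% and 77.8% in those without.

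Neutrophil-like cells had 2285 CPM in 3510 control cells and 1387 CPM in 3409 DKO cells (-0.72, or -0.27 without Hist1h2ap). Of 17 genes, 3 were 2-fold lower against 0.522% of 5174 genes: Hist1h2ap at 780 and 142 CPM (-2.46), Hist1h2ae at 128 and 57.1 CPM (-1.17) and Hist2h2aa1 at 24.6 and 11.02 CPM (-1.15). Hist1h2af (0.35) and Hist1h4d (0.12) were the highest. Cells with at least as many UMIs of Ltf, a granule gene of immature neutrophils, as of Retnlg had 2962 and 1900 CPM (-0.64), and cells with more Retnlg, which marks later neutrophils, had 643 and 504 CPM (-0.35). Free RNA could account for up to 19.4% of the control and 25.2% of the DKO counts in the first group and for up to 100% in both libraries in the second, so the level in the later cells cannot be separated from free RNA.

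Across all 13 classes, Hist1h2ap was lower in the DKO library in 13 of 13, with the interval below 0 in each. Its smallest difference was in dendritic-like cells, at 453 and 135 CPM (-1.74), and its largest in plasma cell-like cells, at 137 and 1.13 CPM, where the DKO value rests on 1 UMI (-5.93, -12.2 to -4.41). Megakaryocyte-like cells had 615 UMIs in control and 4 in DKO cells, 401 and 6.09 CPM (-5.72). The empty droplets of the control library held Hist1h2ap at 519 CPM, above its control level in both of these classes. Its control counts in plasma cell-like and megakaryocyte-like cells therefore cannot be separated from free RNA, which the intervals do not cover. Hist1h2ap was the most counted histone gene in 11 of the 13 classes of the control library. In the DKO library Hist1h1b took that place in 8 classes. Hist1h2ae had at least 50 UMIs in 11 classes and was lower in all of them, from -0.15 in dendritic-like to -2.77 in megakaryocyte-like cells, with the interval below 0 in 10.

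The sum over the genes was lower in the DKO library in all 13 classes, from -0.01 in dendritic-like cells (1718 and 1703 CPM, interval -0.08 to 0.05) and -0.02 in megakaryocyte-like cells (2868 and 2822 CPM, -0.10 to 0.06) to -1.10 in macrophage-like cells (487 and 226 CPM). Without Hist1h2ap, the sums were above 0 in 3 classes, at 0.31 in dendritic-like, 0.19 in megakaryocyte-like and 0.033 in cKit+ progenitor-like cells. Monocyte-like cells stood at 3588 and 2242 CPM (-0.68, or -0.33 without Hist1h2ap), and basophil or mast cell-like cells at 3638 and 2898 CPM (-0.33, or -0.03). In T or NK cell-like cells, at 724 and 358 CPM, stromal-like cells, at 1163 and 556 CPM, plasma cell-like cells, at 567 and 301 CPM, and macrophage-like cells, histone counts could not be separated from free RNA. Droplets without a cell in the control library held 2388 histone CPM (2341 to 2436), and the most that free RNA could account for was 100% of the control counts in these 4 classes, 31.3% in neutrophil-like, 31.9% in B cell-like and 28.5% in late erythroid-like cells, and 0.99% in early erythroid-like cells. For Hist1h2ap in the DKO library this upper limit was 100% in neutrophil-like and B cell-like cells and 1.89% in early erythroid-like cells, where the ratio of Hist1h2ap was -2.26. The DKO limits use the control profile, since only called cells of the DKO library were deposited.

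**Figure D3:**
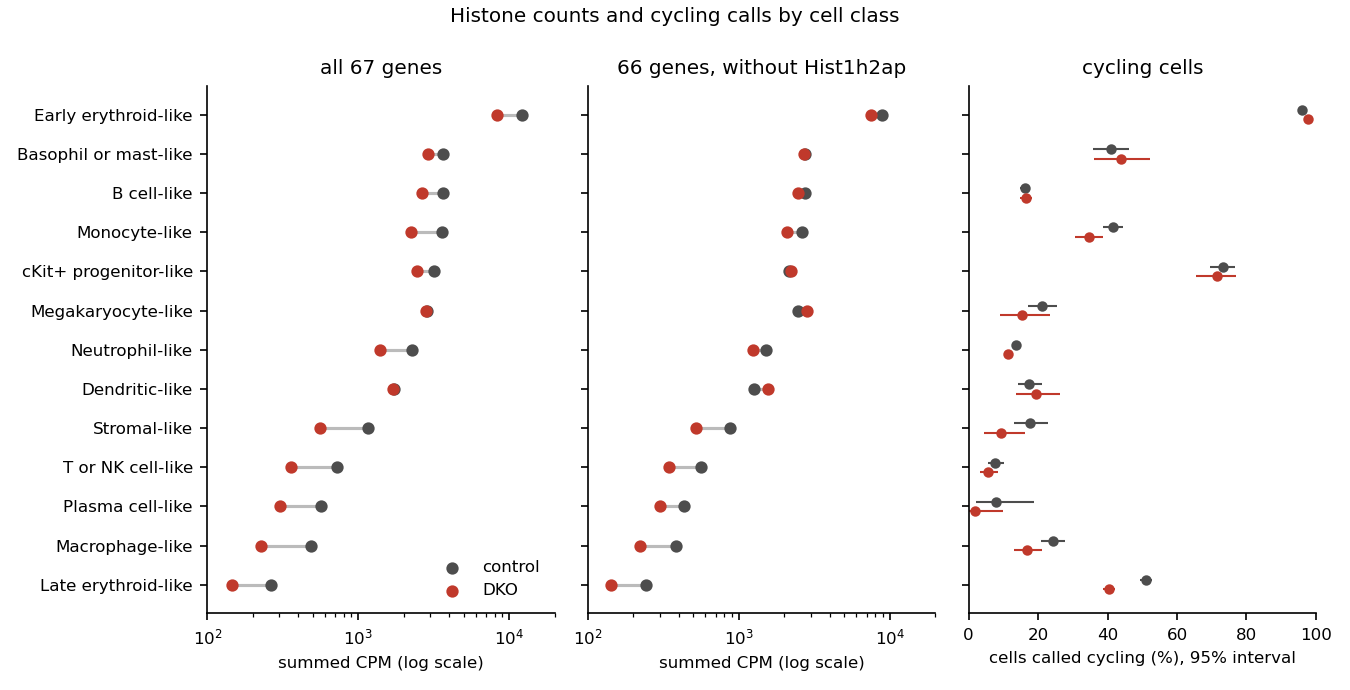
Summed CPM of all 67 histone genes (left, log scale) and of the 66 genes without Hist1h2ap (middle, log scale), and percent of scored cells called cycling with 95% binomial intervals (right), for each cell class in the control (grey) and DKO (red) library, in the order of the control sum. Early erythroid-like cells lead every panel, and the distance between the libraries is smaller in the middle panel than in the left panel in every class except the dendritic-like and megakaryocyte-like cells.

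Megakaryocyte-like cells, like late erythroid-like cells, were led by Hist1h1c in the control library, and not by Hist1h2ap. Hist1h1c, a linker histone gene, was at 971 CPM in control and 1495 CPM in DKO cells (0.62, 0.51 to 0.74), and Hist1h2bc, an H2B gene, at 436 and 788 CPM (0.85, 0.69 to 1.02). Hist1h1b was at 205 and 27.4 CPM (-2.83). The empty droplets of the control library held Hist1h1b at 383 CPM, above its control level here, so that level cannot be separated from free RNA. Hist1h1c made up 33.8% of the histone UMIs of these cells in control and 53.0% in DKO cells, and Hist1h2bc 27.9% in the DKO library. Free RNA could account for at most 32.9% of the control and 13.3% of the DKO counts of Hist1h1c. The class held 391 control and 109 DKO cells, with median depths of 1464 and 913 UMIs.

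The histone genes were then set against cell division. A cell was called cycling if 3 or more of 500 UMIs, drawn at random from its UMIs outside the hemoglobin genes, came from a list of 39 S-phase and 42 G2/M genes that holds no histone gene; 1681 control and 1223 DKO cells had fewer than 500 such UMIs and were left out. By this call 37.0% of control cells (36.3 to 37.7) and 34.7% of DKO cells (33.9 to 35.5) were cycling, and 33.6% and 31.5% without drawing to a fixed depth. In 18.3% and 16.3% of the scored cells the count lay next to the threshold. The empty droplets of the control library would give 4.16 list UMIs in 500, and the part of free RNA in the calls was not tested.

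Cycling cells held 89.6% of the histone UMIs of scored cells in control cells and 90.1% in DKO cells. In the control library the genes summed to 5782 CPM in cycling cells and 751 CPM in other cells, 7.70-fold, and in the DKO library to 4541 and 518 CPM, 8.76-fold. Of 22 histone genes whose CPM averaged 20 or more over cycling and other cells, weighted equally, 20 were at least 2-fold higher in cycling cells in both libraries, against 10.5% of 5391 genes, and Hist1h1c and Hist1h2bc were not. Within early erythroid-like cells 33 of 34 were, against 10.3% of 5148 genes, and within B cell-like cells 22 of 25, against 11.7% of 6267 genes. A gene could pass on its level in cycling cells alone, so the filter itself favors genes that are high there. These counts describe the genes that passed, leave out the other members and are not a test.

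Ranked among the 30 genes with at least 20 CPM in the cycling cells of both libraries, the genes ran from strongly to weakly tied to the call. This filter used cycling cells only, so genes high in other cells alone were left out. Hist1h3c, an H3 gene, was at 95.3 CPM in cycling and 4.39 CPM in other control cells (4.43 on the log2 scale) and at 130 and 2.97 CPM in the DKO library (5.44). Hist1h2ab (4.28 in control and 4.77 in DKO cells), Hist1h2af (4.21 and 4.53), Hist1h2bm (3.96 and 4.54) and Hist1h3f (4.01 and 4.47) followed. The lowest were Hist1h1c, at 155 CPM in cycling and 103 CPM in other control cells (0.59, and 0.82 in the DKO library), and Hist1h2bc, at 115 and 66.6 CPM (0.78, and 0.86). Hist1h4i (1.64 and 1.86), Hist1h2ac (1.64 and 1.94) and Hist1h2be (1.996 and 1.95) came next.

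Hist1h2ap was at 1644 CPM in cycling and 135 CPM in other control cells (3.61), and at 385 and 21.8 CPM in the DKO library (4.14). Its level was thus lower in the DKO library in cycling and other cells alike. Of the 30 genes, Hist2h2aa1, an H2A gene, was the one whose ratio differed most between the libraries, 1.16 in control and 3.12 in DKO cells. In cycling cells it stood at 26.9 and 25.4 CPM, and in other cells at 12.01 CPM in control and 2.91 CPM in DKO cells.

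**Figure D4:**
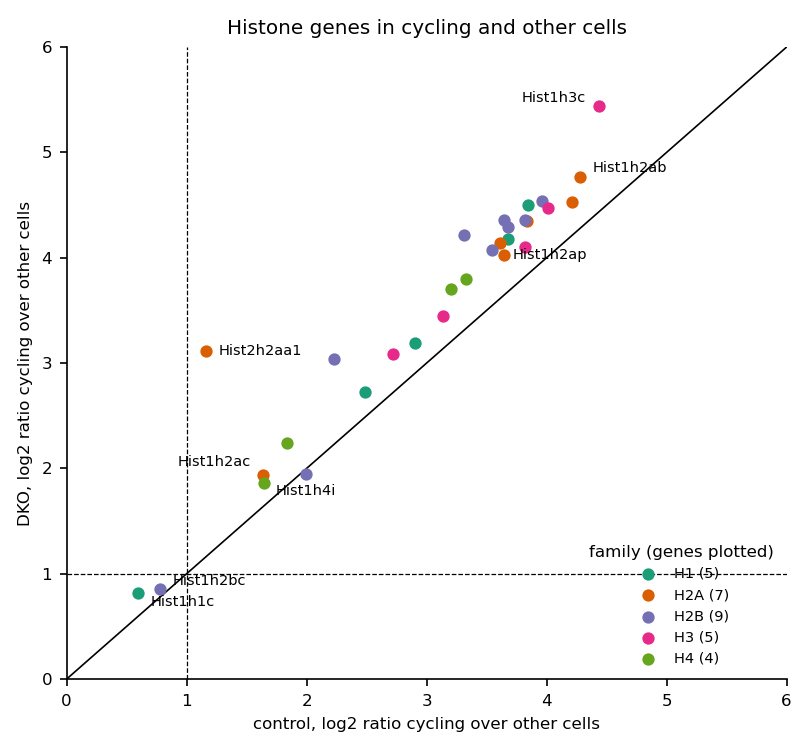
Log2 ratio of CPM in cycling over other cells for the 30 histone genes with at least 20 CPM in the cycling cells of both libraries, in the control (x axis) and DKO (y axis) library, coloured by family; the solid line marks equality and the dashed lines a 2-fold difference. Hist1h1c and Hist1h2bc are the 2 genes under both dashed lines, and Hist2h2aa1, at 1.16 and 3.12, lies farthest from the solid line.

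Across the 13 classes, the share of cycling cells and the histone level went together only in part. Pearson's r between them was 0.739 in control and 0.784 in DKO cells, and Spearman's rho 0.363 and 0.489, as a description over classes of 1 library each that share its free RNA. Per UMI outside the hemoglobin genes, r was 0.768 and 0.806 and rho 0.560 and 0.665. Late erythroid-like cells fell outside the relation, with 51.1% cycling calls in control and 40.5% in DKO cells but 264 and 145 histone CPM, or 1868 and 1305 per 1000000 UMIs outside the hemoglobin genes. In them Ube2c and Nusap1, 2 genes of the G2/M list, gave 59.5% of the list UMIs in control and 69.2% in DKO cells. Without these 2 genes, left off after this was seen, 11.1% and 4.10% of late erythroid-like cells were called cycling. The histone level there did not depend on the call, at 305 CPM in called and 299 CPM in other control cells.

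Within the other classes, histone genes were higher in cycling cells by 13.2-fold in control and 9.28-fold in DKO cells in B cell-like cells, by 9.09-fold and 7.18-fold in neutrophil-like cells, and by 1.40-fold and 1.44-fold in cKit+ progenitor-like cells. The last class thus kept much of its histone level in cells not called cycling, with 2433 CPM in control and 1854 CPM in DKO cells. In megakaryocyte-like cells the order differed, with 1.87-fold more in cycling cells of the control library and 0.27-fold in the DKO library, where 16 cells were called cycling. A cycling cell was S-dominant where its drawn S-phase UMIs exceeded its G2/M UMIs, and otherwise G2/M-dominant. Over all cells, S-dominant cells had 5331 CPM in control and 4523 CPM in DKO cells and G2/M-dominant cells 5904 and 4546 CPM. In control cells the S-phase list summed to 2001 CPM and the G2/M list to 4122 CPM, so these calls do not place a cell in a phase. S-dominant over G2/M-dominant cells stood at -0.35 in control and -0.33 in DKO early erythroid-like cells. In late erythroid-like cells this log2 ratio was 0.59 and 1.11.

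Red cell maturation was followed by the hemoglobin share of each cell's UMIs, over the erythroid-like classes and the unnamed cluster with early erythroid markers. The histone level was highest at 15 to 40% hemoglobin, 18737 CPM in 540 control and 10763 CPM in 498 DKO cells (-0.80, or -0.49 without Hist1h2ap). Below 15% it was 5872 and 3935 CPM (-0.58, or -0.26), and at 40 to 75% it was 7340 and 6363 CPM (-0.21, or +0.12). Above that the level was far lower in both libraries, at 213 CPM in control and 247 CPM in DKO cells at 75 to 90% (0.21, 0.14 to 0.28, and 0.11 with hemoglobin left out of the total) and at 84.5 and 43.3 CPM at 90% or more (-0.96). In these last bands free RNA could account for up to 34.0% and 70.8% of the control counts.

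Hist1h2ap was lower in the DKO library in every band, at 1527 and 305 CPM, 4763 and 825 CPM, 1952 and 521 CPM, 17.7 and 3.41 CPM, and 10.7 and 0.717 CPM. It made up more of the histone counts in the empty droplets (519 of 2388 CPM) than in the last 2 bands of the control library. Free RNA could therefore account for more of its control counts in these 2 bands than the 34.0% and 70.8% given for all genes together, so its ratios there are not secure. Hist1h1b was at 1506 and 1406 CPM in the lowest band (-0.10), 3799 and 3193 CPM in the next (-0.25) and 932 and 1275 CPM at 40 to 75% (0.45, 0.41 to 0.49). Hist1h1b was therefore lower in the DKO library in the 2 bands under 40% hemoglobin and higher in the next. The share of cycling calls was 82.8% in control and 90.2% in DKO cells below 15%, 93.8% and 93.7% at 15 to 40%, and 65.4% and 73.1% at 40 to 75%. Cycling calls and Hist1h1b thus both stood higher in the DKO library at 40 to 75%, but went opposite ways below 15%. Hist1h2bc was at 29.8 and 51.6 CPM at 75 to 90% hemoglobin (0.79).

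**Figure D5:**
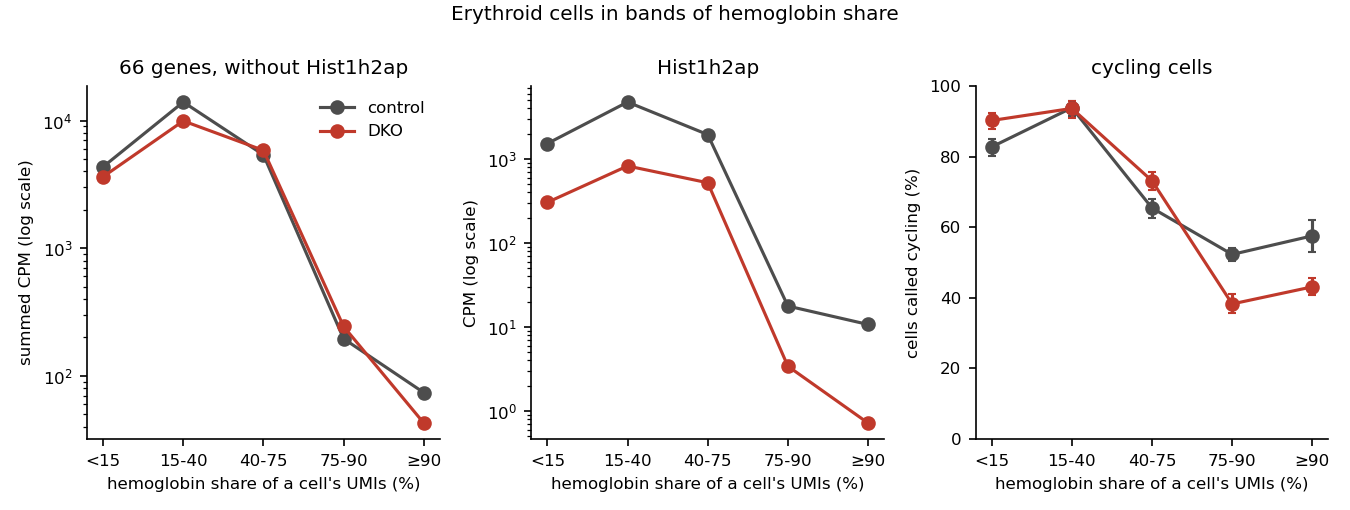
Summed CPM of the 66 histone genes without Hist1h2ap (left, log scale), CPM of Hist1h2ap (middle, log scale) and percent of scored cells called cycling with 95% binomial intervals (right), in 5 bands of the hemoglobin share of a cell's UMIs, for the control (grey) and DKO (red) library. The summed level peaks at 15 to 40% in both libraries, and the DKO line for Hist1h2ap lies below the control line in all 5 bands.

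The partners of these genes were described from 3 lists. Of 10 variant histone genes, which are made outside S phase as well, 9 reached 20 CPM over all cells and all 9 lay below 0, with a median of -0.41 beside -0.06 for all genes and a sum of 6667 CPM in control and 5074 CPM in DKO cells (-0.39). H2afz, the main variant H2A gene, was at 1579 and 1185 CPM (-0.41), H3f3a stood at -0.27, H3f3b at -0.56 and H2afy, which encodes macroH2A, at -0.85. In early erythroid-like cells 8 variants reached 20 CPM and their sum stood at -0.27. Of 12 genes for the 3' end of histone messages, 7 reached 20 CPM, 2 below and 5 above 0, with a sum of 380 and 396 CPM (0.06). Slbp, the stem-loop binding protein, was at 125 and 142 CPM (0.18). In early erythroid-like cells, where 8 of the 12 reached 20 CPM, all 8 lay above 0 and the sum stood at 0.14, while the histone genes stood at -0.57. Of 12 histone chaperone genes, 10 reached 20 CPM, 8 of them below 0, with a sum of 728 and 677 CPM (-0.11). None of the genes on the 3 lists that reached 20 CPM differed by 2-fold over all cells. The S-phase and G2/M lists summed to 0.06 and 0.04.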

How the data were processed

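Both samples were single-cell RNA libraries of bone marrow. The deposited values are raw UMI counts per gene and barcode, made by the authors with Cell Ranger on the mm10 build named in the submitters' processing notes. The header of the DKO matrix gives version 7.1.0, and that of the control matrix was not checked. Other settings are not given in the sources used here. The control matrix held 1194299 barcodes with a UMI and the DKO matrix 14142 called cells, of at least 500 UMIs each.

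Control cells were called by an order-of-magnitude threshold (4870 UMIs) plus a test of smaller barcodes against empty droplets, taken as those of 100 UMIs or fewer (10000 draws, false discovery rate 0.01), which added 9542 barcodes and gave 19205. Cells above 20% mitochondrial UMIs (172 control, 215 DKO) and cells that scanpy's Scrublet marked as doublets (443, or 2.33%, and 204, or 1.46%) were left out. The rest were clustered on 2000 variable genes, 30 components and 15 neighbors at Leiden resolution 1.0, and clusters were named from fixed marker lists (at least 3 markers, and no other class with more markers among the 10 leading genes). Python 3.11.15, numpy 2.4.6, scipy 1.17.1, pandas 2.3.3, scikit-learn 1.9.0, leidenalg 0.10.2, scanpy 1.11.5 and matplotlib 3.10.9 were used.

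Raw counts were summed over the cells of a class and library and divided by the class total (CPM). Log2 ratios had 1 count added to each sum, and their 95% intervals are exact conditional binomial. Shares of cells have Clopper-Pearson intervals. No interval covers more than the error of counting, and genotypes were not tested. Named genes were the 12 with the highest CPM, the 5 lowest and 5 highest ratios in all cells and in the 5 main classes among genes at 20 CPM in either library, and the 5 highest and 5 lowest ratios of cycling over other cells at 20 CPM in cycling cells of both libraries. The histone genes and all lists were chosen with earlier results of these data known. The upper limit for free RNA in a class came from marker genes of other classes in the empty droplets of the control library. Ratios and cycling calls were tested on simulated data with known changes. Alternatives changed the scaling, cell calling, doublet and mitochondrial filters, clustering, the cycling call and the genes summed.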

Additional observations from a re-analysis of the deposited data

Results flagged for a closer look

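In erythroid-like cells at 75 to 90% hemoglobin the histone genes together were higher in the DKO library, with a log2 ratio of 0.21 (0.11 per UMI outside the hemoglobin genes), while the other 4 bands lay below 0. The difference between the bands was not tested. With Hist1h2ap left out, the sums of 3 classes lay above 0, at 0.31 in dendritic-like, 0.19 in megakaryocyte-like and 0.033 in cKit+ progenitor-like cells, while those of the other classes lay below 0, and these differences were not tested either. The empty droplets of the control library held 2388 histone CPM, or 1868 CPM without Hist1h2ap, a level between those of neutrophil-like cells (2285 CPM) and megakaryocyte-like cells (2868 CPM) of the same library.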

How the results depend on the processing

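No paired analysis was possible because each genotype had 1 library. Of 103 alternative values, 33 stayed close to the value reported, 67 moved by more than their counting interval (1.5 times for counts of genes) and 3 turned in direction. The sum of the histone genes over all cells (-0.41) was -0.25 per UMI outside hemoglobin, -0.45 on barcodes above the threshold only and -0.53 without Hist1h1b. Late erythroid-like cells (-0.87) gave -0.52 outside hemoglobin, -0.57 with doublets kept, -0.66 at Leiden resolution 2.0 and -0.73 with free RNA subtracted. Early erythroid-like cells (-0.57) gave -0.50 outside hemoglobin, -0.58 above the threshold, -0.59 with doublets, -0.60 at resolution 2.0 and with free RNA subtracted, and -0.72 without Hist1h1b. B cell-like cells (-0.46) gave -0.59 above the threshold, -0.49 with doublets, -0.57 without Hist1h1b and -0.74 with free RNA subtracted. Neutrophil-like cells (-0.72) gave -0.61 above the threshold, -0.80 without Hist1h1b and -1.26 with free RNA subtracted. Progenitor-like cells (-0.38) gave -0.42 at resolution 2.0, -0.55 without Hist1h1b and -0.41 with free RNA subtracted. Free RNA was not subtracted over all cells, since no marker is absent from the mixture. Settings added after the data were seen left out Hist1h2ap, which gave -0.073 over all cells, -0.76 in late erythroid-like, -0.24 in early erythroid-like, -0.16 in B cell-like, -0.27 in neutrophil-like and 0.033 in progenitor-like cells, and with hemoglobin also left out 0.094, -0.41, -0.18, -0.16, -0.27 and 0.031. The cycling share (37.0% control, 34.7% DKO) was 50.4% and 48.0% above the threshold, 48.0% and 44.4% from 2 UMIs, 23.96% and 23.7% from 5, 31.6% and 30.5% at 1000 UMIs, 33.6% and 31.5% unthinned, and 26.9% and 25.04% without Ube2c and Nusap1. The ratio of cycling over other cells (2.94 control, 3.13 DKO) was 2.99 and 3.10 outside hemoglobin, 2.91 and 3.18 above the threshold, 2.998 and 3.06 from 2 UMIs, 2.74 and 3.06 from 5, 3.23 and 3.36 at 1000 UMIs, 3.59 and 3.60 unthinned, 2.81 and 2.88 without Hist1h1b, 2.75 and 3.06 without Hist1h2ap, and 3.31 and 3.63 without Ube2c and Nusap1. The count of genes at least 2-fold lower over all cells (1) was 2 outside hemoglobin and 3 from 5 CPM, and in late erythroid-like cells (2) it was 1 with doublets and at resolution 2.0, and 4 from 5 CPM. Genes under 20 CPM are limited by depth.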

Other observations

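Hist2h2aa1, an H2A gene that shares all of its 3' words with Hist2h2aa2, differed by stage within the neutrophil-like cells. In cells with more Retnlg than Ltf it had 236 UMIs in control and 27 in DKO cells, 38.9 and 3.34 CPM (-3.50), while in the cells with at least as much Ltf it stood at 18.6 and 15.5 CPM (-0.27). It had 84 and 7 UMIs in late erythroid-like cells (-3.65) and 58 and 2 UMIs in megakaryocyte-like cells (-3.07), against 748 and 866 UMIs in early erythroid-like cells (-0.28). The empty droplets of the control library held it at 49.3 CPM, above its level in most classes, so its control values in cells that do not divide cannot be separated from free RNA. These stages were looked at after the values were seen.

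In plasma cell-like cells, 53 in control and 54 in DKO cells, Hist1h2bc had 27 and 102 UMIs, 32.2 and 116 CPM (1.80, 1.22 to 2.51), while Hist1h1b had 66 and 9 UMIs (-2.82). Free RNA could account for up to 92.6% of the control and 5.55% of the DKO counts of Hist1h2bc there.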
